A study of Mus musculus with 3 samples.

Results

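Peaks of TFAP2A in gene deserts are regions of the mouse genome where this transcription factor was cross-linked to chromatin far from any gene that encodes a protein. They were defined as peaks of replicate 1 on chromosomes 1 to 19 with 1 bp or more in common with a peak of replicate 2, with a summit (the position of highest signal) outside every protein-coding gene body and more than 100 kb from every transcription start site (TSS) of such a gene. Of the 15797 shared peaks on these chromosomes, 1448 met the rule, or 9.17% (95% Clopper-Pearson interval 8.72 to 9.63). Another 4158 shared peaks were intergenic but within 100 kb of a TSS (called other intergenic peaks here), 6126 lay in gene bodies and 4065 in promoters, taken to reach from 5 kb before a TSS to 1 kb after it.

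The study mapped TFAP2A in melan-a cells, an immortalized mouse melanocyte line from normal embryonic skin that carries Cdkn2a tm1RDp/tm1RDp and therefore lacks the cell cycle inhibitors of the Cdkn2a locus. There were 3 samples, 2 of them chromatin immunoprecipitation (ChIP) replicates with the AP-2alpha antibody 3B5 and 1 of them input chromatin without antibody. All came from this 1 cell line, were grown without an experimental treatment in a medium that held a phorbol ester (TPA) and cholera toxin, and differed in no labelled condition. Replicate 1 had 18528 peaks and replicate 2 had 21459, each list called on its own, while the input entered only through the peak calling and sequencing depth was unknown.

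TFAP2A binds DNA as a dimer at palindromic GC-rich sites and can act as an activator or a repressor. It is required in the neural crest, the embryonic cell population from which melanocytes arise, and in the melanocyte lineage itself. Gene deserts are long stretches without protein-coding genes, and many of them flank genes for developmental regulators whose distal enhancers lie within the desert.

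The sequence at a desert summit is shown here for some of the strongest peaks, to show the TFAP2 site and its spacing. Each stretch is 101 bases of the plus strand of mm9 around the replicate 1 summit, and capitals mark a match to GCCNNNGG or GCCNNNNGG on either strand, where N is any base. The peaks are named by the nearest protein-coding gene on each side. In the first 4 the site with a spacer of 3 bases between GCC and GG was present. The flanking genes of these peaks include those for a syntrophin (Sntb1), a steroid reductase (Akr1d1), a transcriptional repressor of the neural crest (Zeb2) and an extracellular matrix glycoprotein (Tnc), some of them at a great distance.
Sntb1 to Has2 (chr15:55874068-55874168): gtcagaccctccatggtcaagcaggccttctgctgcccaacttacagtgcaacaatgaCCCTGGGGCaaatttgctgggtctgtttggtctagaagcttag
Akr1d1 to Trim24 (chr6:37624693-37624793): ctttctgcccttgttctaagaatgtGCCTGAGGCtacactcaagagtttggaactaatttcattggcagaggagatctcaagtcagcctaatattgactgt
Zeb2 to Acvr2a (chr2:46508332-46508432): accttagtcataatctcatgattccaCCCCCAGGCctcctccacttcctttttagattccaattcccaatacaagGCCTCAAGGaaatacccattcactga
Tnc to Pappa (chr4:64250428-64250528): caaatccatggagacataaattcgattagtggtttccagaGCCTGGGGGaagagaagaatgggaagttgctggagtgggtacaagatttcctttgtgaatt

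In the next 4, all among the 12 strongest desert peaks, the 3-base spacer was absent and a match with a spacer of 4 bases lay near the summit. They flanked genes for a hyaluronan synthase (Has2), a protocadherin (Pcdh7), a sorting nexin and the aryl hydrocarbon receptor (Snx13 and Ahr), and an ephrin receptor (Epha4).
Has2 to Slc22a22 (chr15:56673144-56673244): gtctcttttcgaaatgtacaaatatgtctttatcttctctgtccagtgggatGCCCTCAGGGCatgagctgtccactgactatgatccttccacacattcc
Pcdh7 to G6pd2 (chr5:58535256-58535356): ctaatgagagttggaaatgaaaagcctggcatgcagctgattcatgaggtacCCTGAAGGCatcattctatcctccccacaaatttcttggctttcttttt
Snx13 to Ahr, strongest (chr12:35944617-35944717): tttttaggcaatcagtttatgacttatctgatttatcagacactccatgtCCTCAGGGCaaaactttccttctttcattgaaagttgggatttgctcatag
Slc4a3 to Epha4 (chr1:77346789-77346889): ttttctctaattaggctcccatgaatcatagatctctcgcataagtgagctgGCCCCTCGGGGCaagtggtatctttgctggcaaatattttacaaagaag

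The last 2 were also among the 12 strongest and held neither spacer in this window. The first of them was the desert peak with the best mean rank of all and lay beside Pax3, a transcription factor gene of the neural crest and of melanocyte precursors.
Epha4 to Pax3 (chr1:78054713-78054813): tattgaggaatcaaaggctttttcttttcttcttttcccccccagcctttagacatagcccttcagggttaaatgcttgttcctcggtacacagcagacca
B130024G19Rik to Gm10295 (chr7:77993371-77993471): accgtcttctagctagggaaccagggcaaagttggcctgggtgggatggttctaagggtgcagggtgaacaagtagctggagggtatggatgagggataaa

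Desert peaks were sparse for the sequence available to them. Positions that met the rule made up 710.6 Mb, or 29.7% of the sequence outside assembly gaps, so desert sequence held 2.04 shared peaks per Mb. The other intergenic sequence held 6.33 per Mb, gene bodies 7.40 and promoters 20.4. Among chromosomes the density of desert peaks ran from 1.24 per Mb on chromosome 1 to 3.62 per Mb on chromosome 13. The median desert peak was 192.7 kb from the nearest TSS (quartiles 135.6 and 326.9 kb). In all 694 desert peaks were more than 200 kb from a TSS, 168 more than 500 kb and 41 more than 1 Mb.

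The distance limit cut through a continuum. The 3 peaks just inside it were 100.2 kb from the TSS of Aqp9, 100.3 kb from that of Cd47 and 100.4 kb from that of Hs3st1, with a mean fold enrichment over the replicates of 7.33 ± 2.19, 6.82 ± 0.916 and 4.49 ± 1.11 (SD, n = 2). The 3 just outside it were 99.9 kb from the TSS of Fzd1, 99.8 kb from that of Ankrd55 and 99.7 kb from that of Gm9008, with 4.25 ± 0.424, 4.61 ± 0.241 and 5.78 ± 0.130. The enrichment ranges of these inner and outer peaks overlapped.

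Individual desert peaks were among the strongest of the genome, and here strength means the fold enrichment of ChIP over input that the authors' peak caller gave. Of the 10 shared peaks with the best mean rank over both replicates 3 were desert peaks, of the top 20 there were 5, of the top 50 there were 9 and of the top 100 there were 21, beside the 9.17% that desert peaks make up of all shared peaks. The best ranked desert peak lay in chr1:78054317-78055477, 138.7 kb from the TSS of Pax3, and had an enrichment of 49.1 in replicate 1 and 47.9 in replicate 2. The next, in chr15:56672706-56673729, was 147.1 kb from the TSS of Has2 and had 64.6 and 44.5. The third, in chr5:58534651-58535868, had 44.2 and 39.9 and lay 14.7 kb beyond the end of Pcdh7 but 425.0 kb from the start of that gene. All 3 exceeded the desert medians several times over in each replicate.

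The other 9 of the 12 strongest desert peaks had mean enrichments from 29.5 ± 0.235 to 41.6 ± 9.63 (SD, n = 2). A peak 334.6 kb from the TSS of the zinc finger gene Zfp608 had an enrichment of 48.4 in replicate 1 and 34.8 in replicate 2. Between Snx13 and Ahr there were 2 of the 12, with 40.2 and 36.4 for the stronger and 32.1 and 29.0 for the weaker. A peak between Sntb1 and Has2 had 38.7 and 30.1, so Has2 was flanked by a peak of this group on each side. Epha4 was likewise flanked on each side, by the peak toward Pax3 and by a peak 16.9 kb beyond its body with 32.9 and 28.9. The remaining 4 lay between Api5 and the netrin-G ligand gene Lrrc4c (36.6 and 31.0), B130024G19Rik and Gm10295 (31.6 and 29.9), Akr1d1 and Trim24 (38.1 and 27.2), and the gene of the BMP-binding protein Bmper and Npsr1 (29.4 and 29.7). Of all 12, 11 were higher in replicate 1 than in replicate 2, whereas 56.6% of the 1448 desert peaks were higher in replicate 2.

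The replicates ranked the desert peaks in a similar but not identical order. The median ratio of replicate 2 to replicate 1 enrichment was 1.04, and 96.8% of the 1448 pairs lay within 2-fold. Across these peaks Spearman's rho was 0.802, a description of 2 libraries since peaks are not replicates. Both values were the lowest of the 4 locations, with 98.4% and 0.822 for other intergenic peaks, 98.1% and 0.835 for gene bodies and 99.1% and 0.852 for promoters. The summits of a pair were a median of 25.5 bp apart. The pair that differed most toward replicate 1 lay between 5930403N24Rik and Lama4, a laminin gene, with 13.3 in replicate 1 and 5.02 in replicate 2. The pair that differed most toward replicate 2 lay beyond the polarity gene Pard3, with 3.95 and 18.1, a ratio of 4.57. In all 46 pairs lay beyond 2-fold, and 1445 different replicate 2 peaks partnered the 1448, so that 3 pairs of neighbouring replicate 1 peaks shared a partner. These lay between Ccnd1 and Tpcn2, between Snx13 and Ahr, and between Cdkn2b and Dmrta1.

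**Figure D1:**
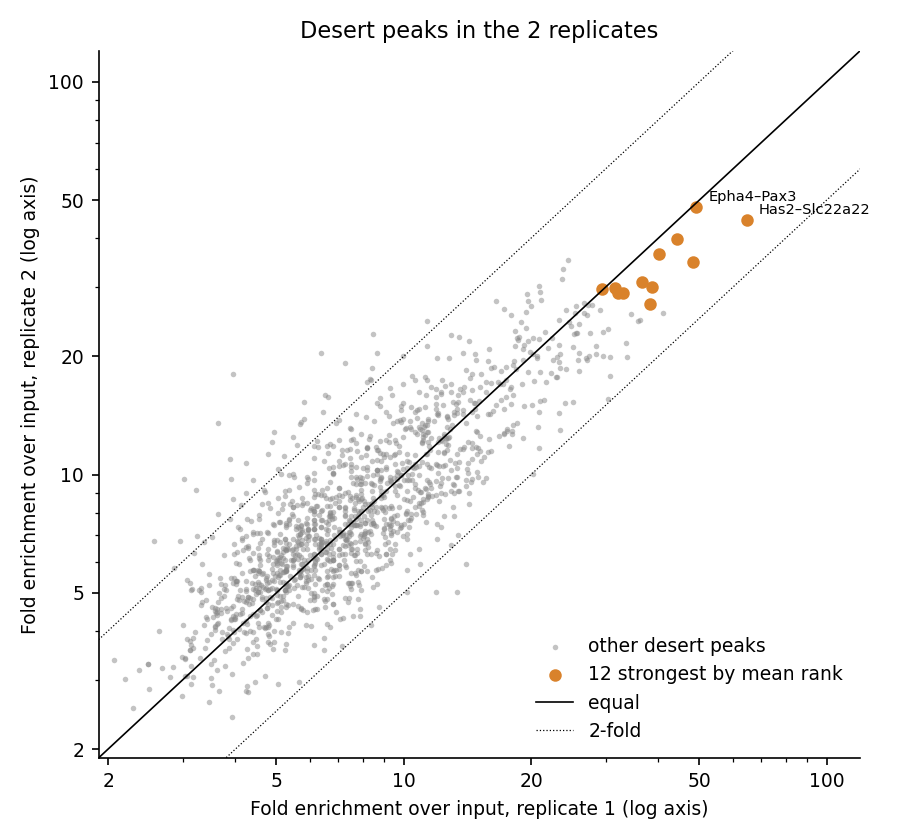
Fold enrichment over input of each of the 1448 desert peaks in replicate 1 (horizontal, log axis) and replicate 2 (vertical, log axis), with the 12 strongest by mean rank in orange, the line of equal values and dotted lines at 2-fold. The peaks lie along the line of equality, 96.8% of them within the dotted lines, and the 2 strongest are labelled by their flanking genes.

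As a group, desert peaks had a higher fold enrichment than other shared peaks. Their median enrichments of 7.26 in replicate 1 and 7.56 in replicate 2 averaged 7.41 ± 0.212 (SD, n = 2). Other intergenic peaks had 6.21 and 6.66, gene body peaks 6.20 and 6.78, and promoter peaks 4.86 and 5.35. The desert median exceeded the other intergenic median 1.17-fold in replicate 1 and 1.13-fold in replicate 2, a gap larger than that between the replicates in either class. With 2 replicates an exact paired test over samples cannot fall below a two-sided p of 0.5, so peaks were counted. By construction 10% of all shared peaks were in the upper 10% of each replicate by enrichment. Among desert peaks 16.4% were in replicate 1 (14.6 to 18.4), against 10.9% of other intergenic peaks (Fisher's exact test, two-sided, p = 8.7e-08). In replicate 2 these shares were 17.7% and 10.8% (Fisher's exact test, two-sided, p = 3.7e-11).

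The other strength measure in the lists did not show this against other intergenic peaks. Desert peaks had a median -log10 p of 25.9 (replicate 1) and 27.2 (replicate 2), lower than the 28.3 and 29.5 of other intergenic peaks. By -log10 p, 9.53% of desert peaks and 11.1% of other intergenic peaks were in the upper 10% in replicate 1 (Fisher's exact test, two-sided, p = 0.103), and 9.81% and 10.8% in replicate 2 (p = 0.320). The background in these comparisons was again 10%. Median -log10 p was 26.9 and 29.4 for gene body peaks and 24.2 and 26.9 for promoter peaks. Of promoter peaks 7.31% and 7.65% were in the upper 10%, fewer than of desert peaks (Fisher's exact test, two-sided, p = 0.0089 and 0.012). The higher standing of desert peaks over other intergenic and gene body peaks thus held for enrichment only, and over promoter peaks for both measures. Fold enrichment and -log10 p put the classes in a different order.

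**Figure D2:**
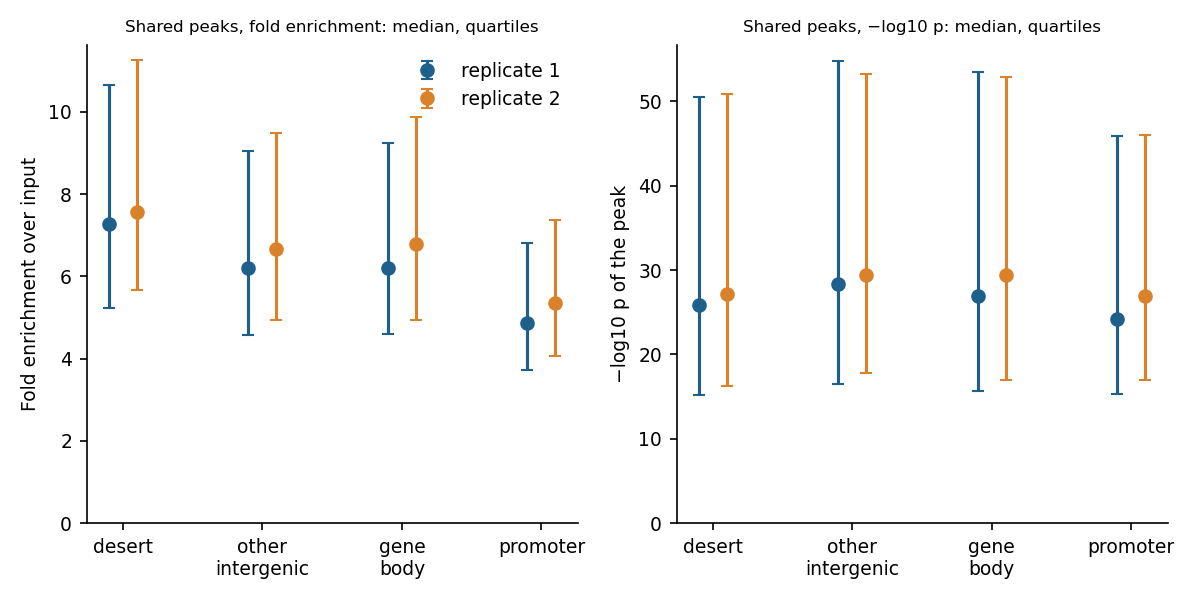
Median (point) and quartiles (bar) of fold enrichment over input (left) and of -log10 p (right) for shared peaks by location, in replicate 1 (blue) and replicate 2 (orange). Desert peaks have the highest median enrichment in both replicates, 7.26 and 7.56, whereas their median -log10 p of 25.9 and 27.2 is below that of other intergenic peaks.

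Desert peaks were also found in both replicates slightly less often. Of 1724 replicate 1 peaks that met the position rule 84.0% had a partner in replicate 2, against 86.3% of other intergenic peaks (Fisher's exact test, two-sided, p = 0.022) and 87% of all replicate 1 peaks on these chromosomes. Of 2012 such replicate 2 peaks 73.1% had a partner, against 76.5% (Fisher's exact test, two-sided, p = 0.00295) and a background of 76%.

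By distance from genes, the median enrichment of desert peaks was 6.86 to 7.95 (replicate 1) and 7.40 to 8.75 (replicate 2). The 754 peaks at 100 to 200 kb from a TSS had median enrichments of 6.86 and 7.40 in replicates 1 and 2. At 200 to 500 kb the 526 peaks had 7.48 and 7.83, at 500 kb to 1 Mb the 127 peaks had 7.95 and 8.43, and beyond 1 Mb the 41 peaks had 7.04 and 8.75. Over the same steps the median -log10 p in replicate 1 was 27.8, 25.2, 23.2 and 18.9, and the median peak width 484.5, 466.5, 431 and 371 bp. The 3 most remote peaks were 2240 kb from the TSS of Celf4, an RNA-binding protein gene (11.3 and 9.66), 2065 kb from that of Olfm4 (6.82 and 6.07) and 1710 kb from that of Pcdh7 (7.72 and 12.1). The peaks that Celf4 and Pcdh7 flank exceeded the desert median in both replicates.

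The TFAP2 consensus GCCNNNGG, counted on either strand up to 50 bp from the summit, was present at 738 desert peaks, or 51.0% (48.4 to 53.6). The background share over all shared peaks was 57.1%. Equally long flank windows, with centres 400 bp away on either side, held it in 9.94%, so the summits exceeded their flanks 5.13-fold, by 41.0 percentage points (exact McNemar test, two-sided, the larger p of both flanks, p = 1.6e-119). Other intergenic peaks exceeded theirs by 41.7 points, from 55.1% at the summit and 13.4% in the flanks. The summit share itself was lower in deserts (Fisher's exact test, two-sided, p = 0.0064). The desert summits were poorer in GC, with a median of 46.5% against 50.5%, and more of them held no CpG, 40.4% against 31.5% (Fisher's exact test, two-sided, p = 8.4e-10). The part of these values in the lower site share was not tested. The longer form GCCNNNGGC occurred at 16.6% of desert summits, against 1.28% in their flanks, 18.0% at other intergenic summits and 19.1% over all shared peaks, and the 2 intergenic classes were not distinguished by it (Fisher's exact test, two-sided, p = 0.26).

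By replicate 1 enrichment, the site was more common at the more enriched desert peaks. With the peaks ordered by replicate 1 enrichment, it was present at 46.3% of the lowest 365 (41.1 to 51.6), 45.1% of the next 359, 54.9% of the next 364 and 57.5% of the highest 360 (52.2 to 62.7). By replicate 2 enrichment the shares were 48.3% (lowest 362), 51.4% (next 362), 51.4% (next 364) and 52.8% (highest 360). Their intervals overlapped, so the gradient was clear in replicate 1 alone. By distance from a TSS the shares were 51.6% at 100 to 200 kb, 52.1% at 200 to 500 kb, 40.9% at 500 kb to 1 Mb and 56.1% beyond 1 Mb, in no order.

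The spacing with 4 bases seen in the sequences above was common throughout the deserts. It was examined only after the summit sequences had been seen, and it is therefore given without a test. GCCNNNNGG was present at 44.3% of desert summits and in 8.29% of flank windows, a ratio of 5.34, close to the ratio of 5.13 for 3 bases. It was more common elsewhere, at 51.9% of other intergenic summits and 52.5% over all shared peaks. Spacers of 2 and 5 bases had ratios of 2.69 and 2.79, and spacers of 1, 6 and 7 bases had 1.79, 1.71 and 1.55. Of the 710 desert peaks without the 3-base form 225 (31.7%) held the 4-base form. The same share was 37.1% for other intergenic peaks and 36.4% over all shared peaks. Either form was present at 66.5% of desert summits, against 14.6% in flanks. It was at 71.8% of other intergenic summits and 72.7% over all shared peaks. Among the 12 strongest desert peaks 6 held the 3-base form and 4 of the other 6 the 4-base form. A site such as the CCCTGGGGC between Sntb1 and Has2 matches both forms, so the spacers are not independent counts.

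**Figure D3:**
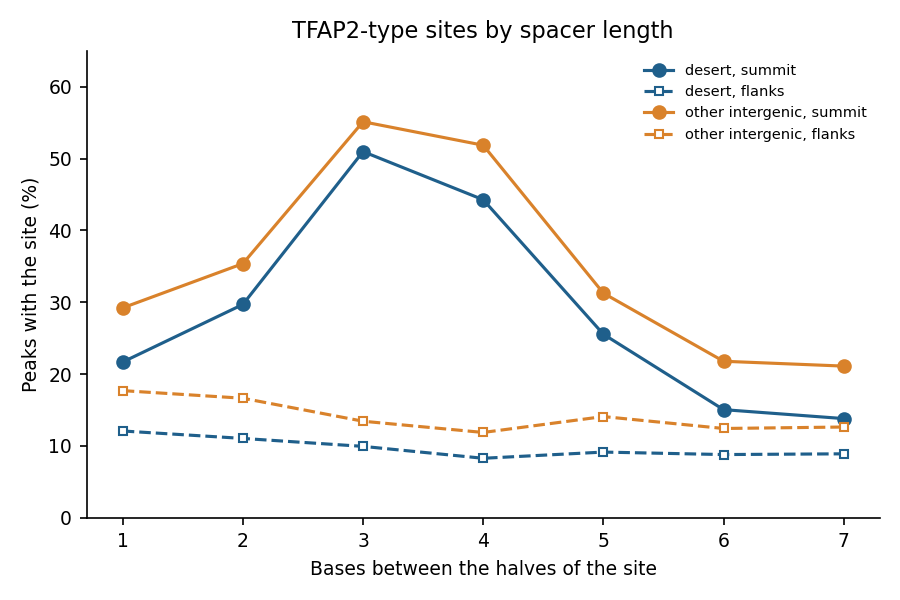
Percent of peaks with GCC and GG separated by 1 to 7 bases, within 50 bp of the summit (filled circles, solid lines) and in flank windows (open squares, dashed lines), for desert peaks (blue) and other intergenic peaks (orange). At desert summits the share is highest for 3 bases (51.0%) and 4 bases (44.3%), while the flanks stay between 8.29% and 12.1%.

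Sites of other factors were counted at the same desert summits. The AP-1 site TGAGTCA, bound by FOS and JUN dimers, was present at 7.94% against 1.97% in the flanks (exact McNemar test, adjusted p = 4.1e-12 by Benjamini-Hochberg over 6 sites; background 6.36%). The TEAD site GGAATG, bound by the partners of YAP, was present at 13.7% against 5.97% (exact McNemar test, adjusted p = 1e-10; background 10.5%). The TEAD site was at 11.6% of other intergenic summits, a difference that did not pass after adjustment (Fisher's exact test, two-sided, adjusted p = 0.11). The AP-1 site was at 8.13% of other intergenic summits, no less than in deserts (Fisher's exact test, two-sided, adjusted p = 0.87). SOX sites, ACAAAGG or ACAATGG, were present at 6.56% against 3.80% (exact McNemar test, adjusted p = 0.014; background 5.22%), an excess of 2.76 points. That call was lost with the replicate 2 list alone, where the excess was 1.89 points (exact McNemar test, adjusted p = 0.061). At other intergenic summits SOX sites were at 5.48%, a difference that did not pass either (Fisher's exact test, two-sided, adjusted p = 0.2). The M-box TCATGTG, to which the melanocyte regulator MITF binds, was at 2.83% against 2.04% (exact McNemar test, adjusted p = 0.62; background 2.01%), and the E-box CACGTG at 1.04% against 0.863% (adjusted p = 1; background 1.79%). Neither of these differed detectably from the flanks at these numbers. A control with the bases of the TFAP2 site reordered, CGGNNNCG, was at 0.622% against 0.483% (exact McNemar test, adjusted p = 1; background 5.94%). The control matched only 9 desert summits, so its comparison there decides little. Where it was more common it exceeded its flanks, with 2.89% against 1.38% at other intergenic summits and 5.94% against 4.08% over all shared peaks. A match to a site is a description of the letters and not of a bound factor.

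Desert peaks lay farther from their neighbours than other peaks did, although some formed dense groups. The median distance from a desert peak to the next shared peak of any kind was 36.4 kb, against 16.1 kb for other intergenic peaks. The next shared peak was within 25 kb for 43.4% of desert peaks and for 59.4% of other intergenic peaks. When desert summits within 25 kb of each other were linked, the 1448 peaks fell into 1070 groups, of which 844 were single peaks and 145 were pairs. The other 81 held 3 or more peaks, and 314 desert peaks (21.7%) were in these. With a median enrichment of 6.71 and 7.21 in replicates 1 and 2 the peaks in these larger groups had lower medians than the single ones, with 7.40 and 7.84. Their median -log10 p of 28.7 and 28.6 was instead higher than the 25.7 and 26.9 of the single peaks.

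The largest cluster held 13 desert peaks over 86.6 kb between Ccnd1, the gene of cyclin D1, and Tpcn2, the gene of an ion channel of endosomes and melanosomes. The enrichments of its peaks were 3.04 to 12.5 in replicate 1 (median 5.91) and 3.38 to 9.50 in replicate 2 (median 6.48), so most were below the desert median, and 9 of the 13 held GCCNNNGG. The Snx13 to Ahr desert held a cluster of 9 peaks over 62.3 kb, with medians of 5.28 and 10.4 in replicates 1 and 2 (8.40 in replicate 2 when the partner that 2 of them shared is counted once), which included the strong peak whose sequence is given above. A cluster of 8 peaks over 57.9 kb lay between Cdkn2b, the gene of a cyclin-dependent kinase inhibitor next to Cdkn2a, and Dmrta1. Enrichment there was 2.48 to 15.6 in replicate 1 and 3.29 to 17.2 in replicate 2, and 2 of its weakest members shared 1 replicate 2 partner. Of 5 clusters with 6 peaks, the 2 of highest summed enrichment lay between Tnc and Pappa (51.7 kb, medians 8.08 and 11.9) and before Foxd3 (47.3 kb, medians 7.92 and 7.44).

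The peaks were spread unevenly over the intervals. Of 1740 intervals free of protein-coding genes that held any desert sequence, 604 (34.7%) held a desert peak, and 299 of these held 1. Of the 1740, 17 lay at a chromosome end and the others between neighbouring protein-coding genes. A small group of 71 intervals with 5 peaks or more held 555 peaks (38.3%) in 9.11% of the desert sequence, and 14 intervals with 10 or more held 185 (12.8%) in 1.88% of it. These intervals were picked by their peaks, so the shares are a description. Among intervals with over 0.25 Mb of desert sequence the density was lower in larger ones. Intervals with up to 0.1 Mb held 4.72 peaks per Mb, those with 0.1 to 0.25 Mb held 4.95, those with 0.25 to 0.5 Mb held 3.11, those with 1 to 2 Mb held 1.13, and the 52 with over 2 Mb held 0.877. Convergent, divergent and tandem neighbours bounded intervals with 2.21, 2.05 and 1.95 peaks per Mb. The largest desert without a peak, looked up after the counts were known, was the 3.23 Mb between Hace1 and Grik2, a kainate receptor gene.

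The interval between Snx13 and Ahr on chromosome 12 held 18 desert peaks in 0.248 Mb of desert sequence. Their enrichments had a lowest value of 3.38, a median of 5.52 and a highest of 40.2 in replicate 1, and 2.79, 8.61 and 36.4 in replicate 2. Counting once the replicate 2 peak that 2 neighbours shared, the replicate 2 median was 6.83. The peaks spread over 224.4 kb, and 6 with a partner of their own had a mean enrichment over 10. Ahr and Snx13 converge, so that these peaks lay beyond the ends of both genes.

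The interval between Myc, the proto-oncogene, and Gsdmc on chromosome 15 also held 18 desert peaks, spread over 1571 kb. The lowest, median and highest enrichments were 3.92, 6.84 and 25.3 in replicate 1 and 2.41, 7.97 and 24.4 in replicate 2. Most of the peaks lay toward either end of the desert, and the best mean enrichment (24.0 ± 1.75; SD, n = 2) belonged to a peak 159.3 kb from Gsdmc, far from Myc. A site was present at 10 of the 18.

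Between Adamts5, an aggrecanase gene, and N6amt1 on chromosome 16 there were 16 desert peaks of moderate strength. Their medians were 8.04 and 7.52 in replicates 1 and 2, and the highest values were 13.4 and 15.0. The next interval, between 9430031J16Rik and Irs1 (an insulin receptor substrate) on chromosome 1, held 15 with medians of 5.81 and 8.22 and highest values of 15.9 and 19.4. No peak of either interval reached an enrichment of 20 in a replicate.

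The 3.70 Mb between Zeb2 and Acvr2a, an activin receptor gene, on chromosome 2 held 14 desert peaks. The lowest, median and highest enrichments were 3.47, 7.08 and 25.4 in replicate 1 and 4.91, 9.17 and 27.6 in replicate 2. The peak with the best mean, 25.6 ± 0.330 (SD, n = 2), was 1535 kb from the TSS of Zeb2. Between Tnc and Pappa on chromosome 4 the 13 desert peaks had values of 4.13, 8.40 and 30.3 in replicate 1 and 5.95, 12.3 and 22.2 in replicate 2. Here 6 of the 13 had a mean enrichment over 10.

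**Figure D4:**
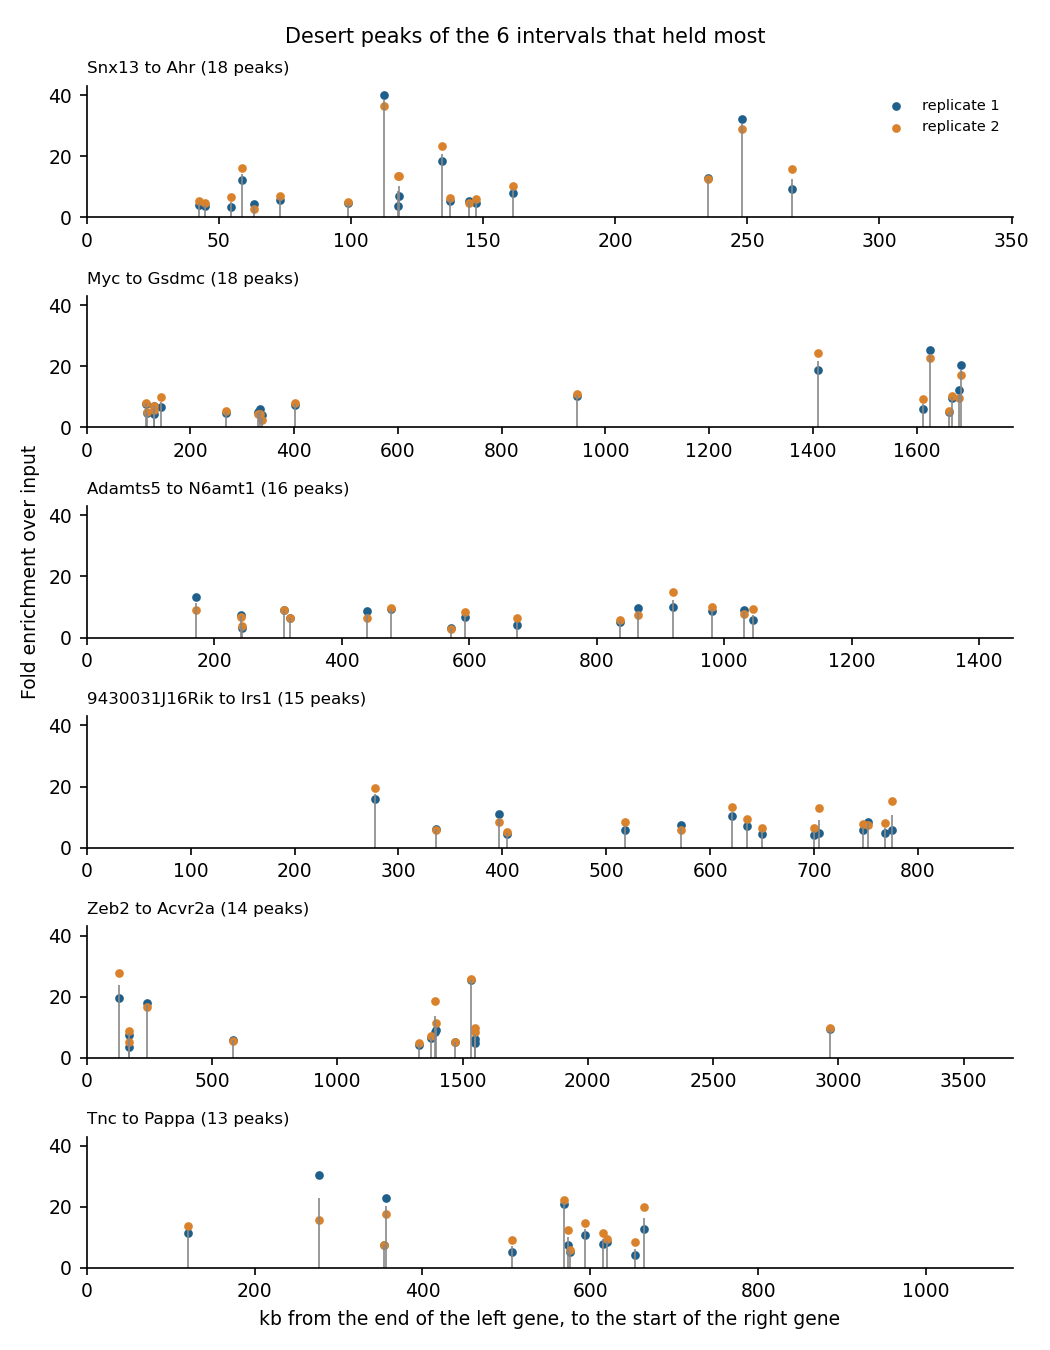
Fold enrichment over input of the desert peaks in the 6 intervals with the most peaks, by distance in kb from the end of the left gene to the start of the right gene, with points for replicate 1 (blue) and replicate 2 (orange) and a line to their mean. Peaks crowd in the 350.5 kb between Snx13 and Ahr and near both ends of the Myc to Gsdmc interval, and stay below 20 in the Adamts5 and Irs1 intervals.

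The genes that bordered occupied deserts included many regulators of the neural crest. Of all 21281 protein-coding genes 1116 (5.24%) bordered an interval with a desert peak, and of the 2868 genes that border desert sequence 38.9% did. On a list of 40 transcription factor genes of the neural crest and of melanocytes 27 bordered desert sequence, and 20 of these bordered a desert peak. On a list of 33 pigment cell genes the numbers were 11 and 8. The lists were put together with earlier results of these data known, and genes beside large deserts have more sequence to hold peaks, so no test was made. A bordering gene need not have the TSS nearest to its peaks, and which gene a peak acts on is not known from these data.

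Among the neural crest genes Myc and Zeb2 bordered the most desert peaks, 18 and 14, followed by Sox9 with 12 in its flanking intervals. The Sox9 peaks were weak, with medians of 4.36 and 5.41 in replicates 1 and 2 and no value above 14.6. Id2, an inhibitor of basic helix-loop-helix factors, bordered 7 with medians of 5.93 and 7.57. Nr2f1, an orphan nuclear receptor gene of the neural crest, bordered 6, all at least 442.5 kb from a TSS, and the strongest had 20.6 and 19.8. Foxd3, which represses melanocyte fate in early neural crest, bordered the 6 of the cluster above, the strongest with 12.5 and 16.8 at 133.0 kb from its TSS. Sox6 bordered 6 with medians of 5.86 and 6.47.

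Pax3 bordered 4 desert peaks, of which none held GCCNNNGG within 50 bp of the summit. The strongest, described above, was followed 2.10 kb away by a peak with 27.3 in replicate 1 and 27.0 in replicate 2. The other 2 had 5.53 and 5.43, and 4.79 and 4.18. The Pax3 desert thus combined the best ranked desert peak with peaks below the desert median.

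The remaining neural crest genes bordered fewer. Mycn and Nr2f2 bordered 4 each, Zic1, Sox2 and Ets1 3 each, Otx2, Tbx3, Meis1, Tcfap2b (the annotation's name for the paralog Tfap2b) and Lef1 2 each, and Pou3f2 and Tcfap2c (Tfap2c) 1 each. The strongest of all these lay between Tbc1d2b and Zic1, with 11.3 in replicate 1 and 21.2 in replicate 2, 892.3 kb from Zic1 and 195.0 kb from the TSS of Tbc1d2b. The highest values at Mycn were 10.7 and 8.29, and those at Lef1, a nuclear effector of WNT signals, 4.78 and 4.09. No desert peak bordered Alx1, Mitf, Msx1, Snai2, Sox5, Twist2 or Zeb1, although each borders desert sequence.

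Among the pigment cell genes Oca2, which encodes a melanosomal transporter, bordered 5 desert peaks beyond its end, 7.13 to 59.1 kb from the gene body. The one nearest to the gene had 17.9 in replicate 1 and 25.4 in replicate 2 and held GCCNNNGG matches, and the next had 8.33 and 12.6. Adamts20, a metalloprotease gene that melanoblasts need to colonize the trunk skin, also bordered 5, with a highest value of 26.0 in replicate 1 and 20.4 in replicate 2, although that peak was 197.2 kb from the TSS of Prickle1, which was nearer. Kitl, the ligand of the receptor KIT on which melanocytes depend, bordered 2. The stronger had 27.2 and 19.6 at 118.9 kb from its TSS, and the other 18.1 and 13.4 at 105.4 kb.

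Kit itself bordered 2, and both were higher in replicate 2. The nearer had 8.77 and 15.6 at 109.1 kb from the TSS of Kit, and the other had 5.73 and 13.6. Tyrp1, a melanosomal enzyme gene, bordered 3, the strongest of which had 10.2 and 11.3 but lay 976.6 kb away. Ednrb, the endothelin receptor gene of melanoblasts, bordered 2 with 7.72 and 6.02 at the stronger. Ap3b1, a subunit of the vesicle adaptor AP-3, bordered 2 with 8.02 and 8.29 at the stronger, and Slc24a5, a cation exchanger gene, bordered 1 with 3.89 and 9.74. No desert peak bordered Edn3, Mreg or Trpm1.

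**Figure D5:**
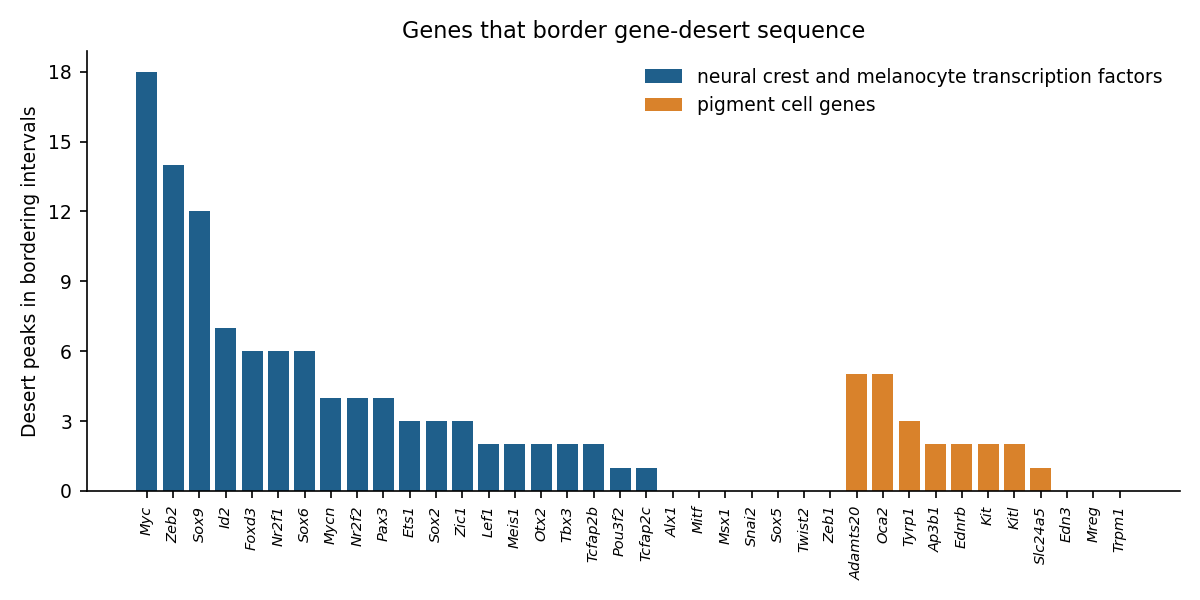
Number of desert peaks in the intervals that border each gene, for the genes of the neural crest list (blue) and the pigment cell list (orange) that border desert sequence. Myc (18), Zeb2 (14) and Sox9 (12) stand highest, and 10 of the genes shown have none.

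Other groups of genes were counted in the same way. Of 66 bordering genes of developmental transcription factor families 36 bordered a desert peak, but 14 of the 66, of which 12 had a peak, are on the neural crest list as well, and of the other 52 genes 24 (46.2%) did. Sox4 (13, strongest 30.7 and 20.0), Sox9, Nr2f1 and Foxd3 bordered the most peaks. Of 23 cadherin and protocadherin genes 14 did, led by Pcdh7 (10), Cdh2 (N-cadherin; 4, strongest 22.5 and 22.2), Pcdh17 (3, strongest 26.0 and 24.2) and Pcdh9 (3, strongest 14.1 and 18.4). Of 33 axon guidance genes 18 did, led by the ephrin receptor genes Epha4 and Epha7 (7 each), the ephrin gene Efnb2 (6) and Robo2 (5). The strongest peak between Epha7 and Map3k7 had 33.5 in replicate 1 and 21.6 in replicate 2, 1811 kb from Epha7, and the strongest bordering Efnb2 had 19.7 and 21.8, 572.4 kb from that gene. The strongest peak bordering Sox4 was 584.3 kb from that gene, and the strongest bordering Pcdh17 was 1391 kb from it. The nearest TSS to these was that of Prl5a1 and of Diap3. The 3 shares of 54.5% (46.2% without the neural crest list), 60.9% and 54.5% stand beside 38.9% for all bordering genes.

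Fewer members were available in the last groups. Of 15 secreted growth factor genes 8 bordered a desert peak, led by Fgf18 (3, strongest 19.2 and 20.9), Wnt4 (2, strongest 16.1 and 17.1), Tgfb2 (2) and Fgf12 (1). Of 6 feedback genes of the MAPK pathway 5 did, led by Dusp4 (9), Dusp10 (5, strongest 24.2 and 18.6), Spred2 (1) and Spred1 (1). For Fgf18, Wnt4, Fgf12, Dusp4, Spred2 and Spred1 the TSS nearest to the strongest peak was that of another gene. That peak was 172.2 kb from Fgf18 and 123.2 kb from Wnt4. On a list of 8 genes that the study names as lowered on arrays after Tfap2a siRNA in the same cell line, 2 border desert sequence and both bordered a peak. Qpct, a glutaminyl cyclase gene, bordered 2 with 16.4 and 18.8 at the stronger. The retinoic acid enzyme gene Aldh1a3 bordered 1 with 10.9 and 8.34, 159.1 kb from it. The nearest TSS to that peak, 102.2 kb away, was that of Asb7. Of 8 olfactory receptor genes beside desert sequence 1 bordered a desert peak. The share over all bordering genes was 38.9%, and groups this small cannot be told apart from it.

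A desert of protein-coding genes was not always free of transcripts. In the same annotation 98 desert peaks (6.77%) lay inside a gene of another type, 70 of them in a lincRNA. The strongest of these, in Gm4876, was 101.8 kb from the nearest TSS, that of Tes, and had 29.0 in replicate 1 and 26.2 in replicate 2. The next 3 lay in 4930556G01Rik (33.5 and 21.6), Gm12648 (17.2 and 26.4) and Gm16988 (18.7 and 22.4). Only 848 desert peaks (58.6%) met the rule with genes of every type.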

How the data were processed

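TFAP2A ChIP-seq of melan-a cells was analysed from 2 peak lists, 1 per ChIP replicate. Per the labels both replicates and the input came from the same line, and the input has no list here, so samples were compared only through the peaks. The submitters' processing notes name BWA, MACS 1.4.2 and build mm9, without roles. Each list, called by the authors on a replicate on its own, holds for every peak a deposited fold enrichment (a ratio of ChIP to background), a deposited -log10 p-value, a deposited -log10 q-value, a summit and a score. The deposited score, checked at all 18528 and 21459 peaks, was 10 times the -log10 p without its decimals, and was not used. The lowest -log10 p was 5.05 and 5.06, so weaker regions are not listed. Read depth is unknown, and it can change the number of peaks and their p-values. Intervals on shares are 95% Clopper-Pearson intervals, for counting error alone.

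Genes came from GENCODE mouse version 1 on mm9, and sequences from that build's genome. Positions within 50 bp of the summit were searched for sites, with flanks centred 400 bp away. Desert sequence excluded assembly gaps of at least 1 kb. Tests were exact McNemar tests and two-sided Fisher's exact tests with p under 0.05 called. Peaks are not biological replicates, so these p-values describe 2 libraries, which may differ technically. Of the list symbols 3 were not matched on chromosomes 1 to 19 or in the annotation. Peaks named in the text are the 12 of best mean rank, those of the 6 fullest intervals and the 5 largest clusters (ties by summed enrichment), the 3 most remote, the 3 on each side of the distance limit, the most discordant pair each way, the 4 strongest in genes of other types, all listed neural crest and pigment genes with a peak and up to 4 genes of each other list. Sequences are shown for a part of these, which leaves out chromosome 18. The X peaks, unshared peaks, repeat and empty desert named elsewhere were chosen after their values were seen. The members, lists and tests were chosen with earlier results of these data known. Alternatives were each list alone, replicate 2 summits, a reciprocal overlap of 50%, a minimum -log10 q of 5, only the 50% most enriched peaks of each list, TSS limits of 50 and 200 kb, genes of every type, protein-coding transcripts only, windows of 100 bp, other consensus forms, -log10 p for enrichment, the upper 20%, and links of 10 and 50 kb. Scripts were tested on simulated data and used Python 3.11.15, numpy 2.4.6, pandas 2.3.3, scipy 1.17.1, statsmodels 0.14.6, pysam 0.24.0, samtools 1.23.1 and matplotlib 3.10.9.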

Additional observations from a re-analysis of the deposited data

Results flagged for a closer look

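Signals outside the 1448 desert peaks were found in 3 places. On the X chromosome, which the rule leaves out, 34 of 301 shared peaks met the same position rule. Their median enrichments were 8.34 and 9.74 in replicates 1 and 2, and the strongest, 201.0 kb from the TSS of Klhl13, had 41.0 and 33.6. In the replicate 1 list 276 desert peaks had no replicate 2 partner, with a median enrichment of 4.75 and a highest value of 10.0. In the replicate 2 list 541 had no replicate 1 partner, with a median of 5.47 and a highest value of 16.6, 781.5 kb from the TSS of Agbl1. The median of these unshared peaks was below that of the shared ones in both lists.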

How the results depend on the processing

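Leaving out a consensus chosen after the sequences were seen, 74 recomputed values kept their direction and their side of the threshold or stayed within 1.5 times the count, and 16 did not. The count of desert peaks moved to 2465 with a TSS limit of 50 kb, 694 with 200 kb, 848 with genes of every type and 909 in the upper 50% of each list. Clusters of 3 or more moved from 81 to 152, 33, 38 and 34 under the same settings in that order, and to 45 with links of 10 kb. With each replicate list alone clusters ran from 105 (replicate 1) to 129 (replicate 2) and desert peaks from 1724 to 2012. Bordering genes moved from 1116 to 1933 at 50 kb and 590 at 200 kb. These counts follow from the settings' own construction. The desert excess in the upper 10%, 5.52 and 6.91 points by enrichment, reversed to -1.58 and -0.944 points by -log10 p (two-sided Fisher's exact p = 0.103 and 0.320), and the cause was not tested. The lower TFAP2 site share in deserts, -4.16 points, was -1.35 with GCCNNNGGC (Fisher's exact p = 0.26), and the cause was not tested. In 10 other settings it was between -5.13 and -4.06 and passed. The SOX excess of 2.76 points was 1.89 with the replicate 2 list alone (exact McNemar adjusted p = 0.061) and 2.70 with the replicate 1 list alone. The TFAP2 excess over flanks passed in 11 settings, from 15.4 to 43.7 points. With either spacer, a form chosen after the sequences were seen and therefore given without a test, the excess over flanks was 51.9 points and the difference from other intergenic peaks -5.28 points. A paired analysis of the classes over the 2 replicates cannot give an exact two-sided p below 0.5, and classes were compared within each replicate instead. Depth, which is not known, limits the weakest peaks, and absence of a peak is not absence of binding.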

Other observations

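Repeated runs of bases at the summit were rare at all locations. A run of at least 20 bases was counted where it occurred more than once in the 101 bases around the summit. This was so at 1.85% of other intergenic peaks, 1.42% of gene body peaks and 0.664% of promoter peaks. Among desert peaks 15 (1.04%) held such a run. The desert peak with the best mean rank between Adamts5 and N6amt1, with 9.84 in replicate 1 and 15.0 in replicate 2, was among these, with a repeated run of 45 bases. Reads in such a repeat can be placed ambiguously, and the part of this in its enrichment was not tested.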
